A study of Mus musculus with 4 samples.

Results

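The genes described here encode 10 mitochondrial enzymes that break down the branched-chain amino acids leucine, isoleucine and valine. They are Bcat2, Bckdha, Bckdhb, Dbt, Ivd, Acadsb, Mccc1, Mccc2, Hibch and Hibadh, and they were taken by symbol from the 32285 genes of the count files. All 10 were found, and all 10 passed the minimum of 100 unique molecular identifiers (UMIs, 1 per captured mRNA molecule) used for testing. The data are 4 Visium heart sections, 1 from 1 mouse on each of days 1, 4, 7 and 14 after myocardial infarction (MI), so that no day had a replicate. Every mouse was an adult female ICR mouse, 12 weeks old, in which the left anterior descending (LAD) coronary artery had been tied permanently, and no uninjured heart was among these sections. Visium captures the mRNA of a thin tissue section on a slide of barcoded spots. A spot holds RNA from the several cells above it, of whatever types they are.

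Branched-chain amino acids are first stripped of their amino group by the mitochondrial aminotransferase Bcat2, and the resulting keto acids are then oxidized by the branched-chain keto acid dehydrogenase complex. Bckdha and Bckdhb form the decarboxylase part of that complex and Dbt its transacylase core. After this shared step the routes part: Ivd, Mccc1 and Mccc2 act on the leucine branch, Acadsb on the isoleucine branch, and Hibch and Hibadh on the valine branch. The heart oxidizes these amino acids as a minor fuel, and lower expression of the pathway is a known feature of failing myocardium. The comparisons below ask how the 10 transcripts were distributed between quiet and stressed areas of each section, and how their levels differed between the days.

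Blood-rich spots, those above 1% hemoglobin UMIs, were removed, and 7503 of 9102 spots were left. They held 9292678 to 15713779 UMIs per section and a median of 5188 to 8799 UMIs per spot. The 10 enzymes together gave 41527 UMIs, from 1655 for Mccc2 to 9515 for Bckdha, and 18.5% (Mccc2) to 63.1% (Bckdha) of spots had at least 1 UMI of a given enzyme. The barcodes are printed in the same pattern on each slide area, and 1332 of the 3178 seen were found in all 4 sections, so a shared barcode marks a position and not a shared cell.

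Spots were ranked within each section by the share of their UMIs from Ankrd1, Flnc, Xirp2 and Nppb, 4 genes that cardiomyocytes raise under mechanical and ischemic stress, and divided into 4 equal bins. Bin 1 is the quietest and bin 4 the most stressed. Levels are given in CPM, the UMIs of a gene per 1000000 UMIs of the spots summed. The 5 cardiomyocyte markers Myh6, Myl2, Actc1, Tnnt2 and Tnni3 held 21800 to 46800 CPM in every section and bin used, so the heart label was borne out by its defining markers. Over all spots, bin 1 was not uniform tissue. It was 98.5% myocardium on day 1 but only 58.6%, 32.0% and 63.6% on days 4, 7 and 14, where a spot counts as myocardial if its share of Myh6 and Myl2, which encode a myosin heavy chain and a myosin light chain of cardiomyocytes, was at least 0.5 times the section median. The 5 fibroblast markers Col1a1, Col1a2, Col3a1, Dcn and Postn, none of them at 0, held 987, 13200, 23600 and 4080 CPM in bin 1 on days 1, 4, 7 and 14. On day 7 that bin also held 12100 CPM of 10 fast skeletal muscle markers. Bins were therefore made anew among the 5710 myocardial spots alone, where bin 1 held 819 to 1480 fibroblast marker CPM.

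**Figure D1:**
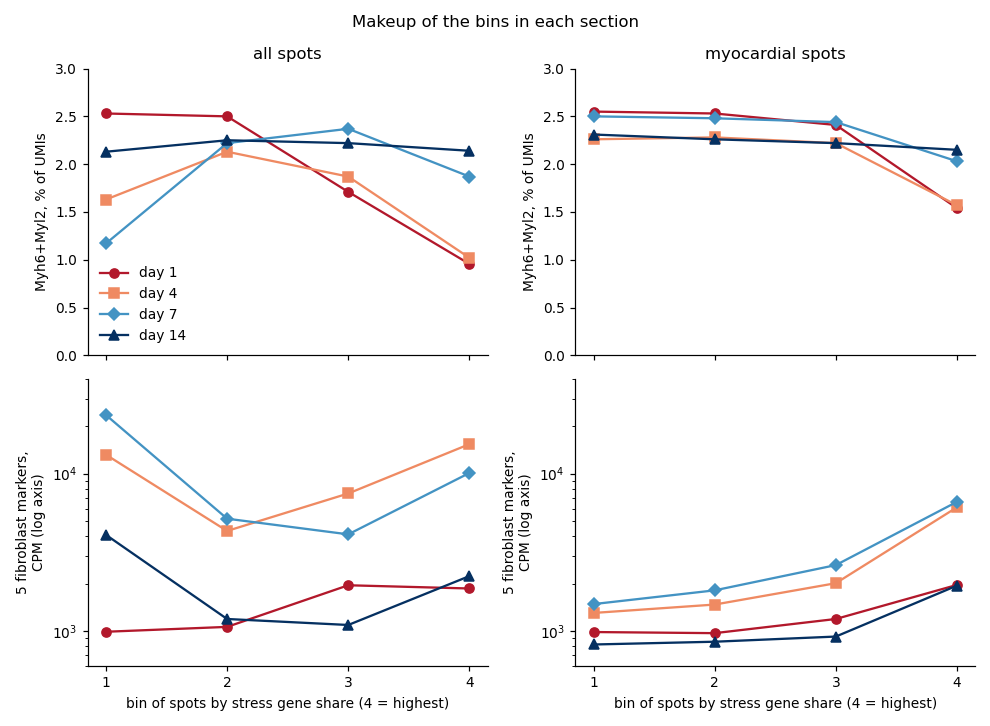
Makeup of the 4 bins of spots in each section, for all spots (left) and for myocardial spots (right). The upper panels plot the share of UMIs from Myh6 and Myl2 in percent, and the lower panels the CPM of 5 fibroblast markers on a log axis, with 1 line per section. Bin 1 of all spots held 987 to 23600 fibroblast marker CPM, and bin 1 of myocardial spots 819 to 1480.

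In myocardial spots, all 10 enzymes were lower in the stressed bin than in the quiet bin. The log2 fold changes of bin 4 over bin 1 ran from -0.95 for Bckdhb to -0.47 for Acadsb, with a median of -0.76 against 0.02 for all genes tested. The test was edgeR's quasi-likelihood test on UMIs summed per section and bin (16 libraries) with the section as a block. It estimates an average difference within the 4 sections. Its 9 residual degrees of freedom come from all bins of the same 4 mice, so bins act as replicates. The fit also borrows information on spread from the other genes tested, so its p-values rest on more degrees of freedom than these 9. The p-values here and below therefore do not rest on the spread of the difference between the 4 mice alone. Library sizes were scaled by TMM, whose factor was highest in bin 4 of each section. The fitted falls given here and below are therefore deeper than those in CPM. With total UMIs the median of the enzymes was -0.465. Of 10765 genes tested with TMM, 12.2% were lower and 12.3% higher at a Benjamini-Hochberg adjusted p under 0.05. A lower level in a spot can come from fewer cardiomyocytes or from less of the mRNA in each, and these cannot be told apart in sums over spots. Ranking spots on Flnc and Xirp2 alone left 4 enzymes called and a median of -0.285, with 299 of 10765 genes lower and 245 higher. Keeping spots with a Myh6 and Myl2 share of at least the section median left 7 and a median of -0.358. In that fit 409 of 9662 genes were lower and 329 higher.

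The promoters of 2 genes are shown for the enzymes at either end of this range, Bckdhb with the largest fall and Acadsb with the smallest, because both transcripts come from the same tissue and differ in how far they moved. Each is the RefSeq window from 250 bases before to 50 bases after the annotated start on GRCm38.p6, 5′ to 3′ on the plus strand, and the capitals mark the GC box letters GGGCGGG or their reverse complement.
Bckdhb, chr9:83924887-83925186: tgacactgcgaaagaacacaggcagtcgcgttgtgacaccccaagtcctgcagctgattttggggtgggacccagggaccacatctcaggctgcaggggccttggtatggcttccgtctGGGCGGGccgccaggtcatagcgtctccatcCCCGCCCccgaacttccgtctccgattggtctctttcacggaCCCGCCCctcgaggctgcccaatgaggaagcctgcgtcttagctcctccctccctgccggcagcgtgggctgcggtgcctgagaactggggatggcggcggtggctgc
Acadsb, chr7:131410351-131410650: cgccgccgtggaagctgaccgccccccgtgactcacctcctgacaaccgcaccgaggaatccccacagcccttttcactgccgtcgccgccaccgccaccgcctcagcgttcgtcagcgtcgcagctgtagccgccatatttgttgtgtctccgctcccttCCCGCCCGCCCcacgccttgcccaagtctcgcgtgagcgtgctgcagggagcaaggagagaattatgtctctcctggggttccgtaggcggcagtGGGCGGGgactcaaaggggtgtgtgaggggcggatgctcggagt
Both windows held 3 matches, and in Acadsb a pair of them overlapped. G and C made up 65% of the bases in the Bckdhb window and 66% in the Acadsb window, against a median of 52.7% over 32851 RefSeq promoter windows. On either strand, the GC box letters were found in 25.6% of all windows and in 5 of the 11 windows listed for 9 of the enzymes. CCAAT was found in 37.4% of all windows and in 6 of the 11, CACGTG in 7.15% and 1 of the 11 (Mccc2), and TNAAGGTCA, a half-site letter pattern of estrogen-related receptors, in 1.28% and none of the 11. These counts describe letters only, and no binding was measured.

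Bcat2 (ENSMUSG00000030826, chr7:45570153-45589711 on mm10, plus strand), the aminotransferase that opens the pathway, had quiet and stressed values that overlapped across the days. In bin 1 of myocardial spots it gave 30.2, 37.4, 53.6 and 46.6 CPM on days 1, 4, 7 and 14, and in bin 4 it gave 18.2, 37.1, 47.1 and 35.9. The fall was plain on day 1 and day 14, while on day 4 both bins were level. In the fit over the 4 sections Bcat2 was lower in bin 4 (log2 fold change -0.61, SE 0.12, edgeR adjusted p = 0.000142).

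Bckdha, Bckdhb and Dbt, the 3 genes among the 10 that encode parts of the keto acid dehydrogenase complex, were among the most reduced of the 10. Bckdha (ENSMUSG00000060376, chr7:25629946-25658981, minus strand), the alpha subunit of the decarboxylase, gave 306.9, 233.8, 230.2 and 184.1 CPM in bin 1 on days 1, 4, 7 and 14. In bin 4 it gave 182.9, 145.9, 166.6 and 150.4, so each section fell and the highest stressed value lay just under the lowest quiet one. The fitted log2 fold change, with TMM, was -0.85 (SE 0.09, edgeR adjusted p = 1.62e-08). With total UMIs it was -0.54, a level 0.687 times that of the quiet bin.

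Bckdhb (ENSMUSG00000032263, chr9:83925145-84124240, plus strand), the beta subunit that pairs with Bckdha, had the largest fall. Its bin 1 values of 97.2, 65.8, 72.4 and 64.5 CPM on days 1, 4, 7 and 14 stood against 47.2, 39.9, 46.1 and 54.2 in bin 4. The groups did not overlap, and the day 14 pair was the closest. The log2 fold change was -0.95 (SE 0.11, edgeR adjusted p = 7.52e-08). Dbt (ENSMUSG00000000340, chr3:116513070-116549981, plus strand), the transacylase core, moved from 38.3, 38.5, 34.7 and 43.2 CPM in bin 1 to 22.8, 26.7, 23.5 and 34.4 in bin 4. All sections fell, and the highest stressed value lay just under the lowest quiet one, with a fitted log2 fold change of -0.81 (SE 0.12, edgeR adjusted p = 4.5e-06). The counting intervals of the Dbt ratio on days 7 and 14 included 0.

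On the leucine branch, Ivd (ENSMUSG00000027332, chr2:118861954-118882909, plus strand), the dehydrogenase of isovaleryl-CoA, gave 228.2, 188.6, 190.8 and 175.9 CPM in bin 1 on days 1, 4, 7 and 14. In bin 4 it gave 130.3, 131.9, 135.4 and 148.7, well apart from the quiet values. The stressed values were alike on all days, and the quiet value was highest on day 1. The log2 fold change was -0.81 (SE 0.09, edgeR adjusted p = 5.96e-08).

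Mccc1 and Mccc2 encode the alpha and beta subunits of methylcrotonyl-CoA carboxylase, the next enzyme of leucine breakdown, and both were lower in bin 4. Mccc1 (ENSMUSG00000027709, chr3:35959312-36000678, minus strand) went from 48.6, 48.3, 32.4 and 30.7 CPM to 28.1, 36.7, 27.9 and 29.6 on days 1, 4, 7 and 14. Mccc2 (ENSMUSG00000021646, chr13:99948530-100015639, minus strand) went from 59.9, 26.9, 31.2 and 40.8 to 33.5, 16.3, 20.7 and 40.1. On day 14 the bins were nearly level for both genes, and for both the quiet and stressed ranges overlapped across days. The log2 fold changes were -0.66 (SE 0.13) for Mccc1 and -0.77 (SE 0.15) for Mccc2, each with an edgeR adjusted p of 0.000216.

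Acadsb (ENSMUSG00000030861, chr7:131410601-131448944, plus strand), the short/branched-chain acyl-CoA dehydrogenase of isoleucine breakdown, fell least. It gave 105.3, 87.8, 66.5 and 64.0 CPM in bin 1 on days 1, 4, 7 and 14, and 85.7, 65.8, 73.5 and 61.8 in bin 4. It was the only one of the 10 enzymes with a section that did not fall in CPM, since its day 7 bin 4 lay above its bin 1. The log2 fold change was -0.47 (SE 0.10, edgeR adjusted p = 0.00059), and without the TMM scaling of the libraries it was -0.165 with an adjusted p of 0.179.

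The Hibch and Hibadh transcripts, of the valine branch, were lower in bin 4 in all 4 sections. Counting intervals of the ratio included 0 for Hibch on day 14 and for Hibadh on day 7. Hibch (ENSMUSG00000041426, chr1:52844929-52920986, plus strand), which removes coenzyme A from 3-hydroxyisobutyryl-CoA, gave 59.9, 60.9, 64.2 and 56.5 CPM in bin 1 and 34.8, 45.0, 44.7 and 51.7 in bin 4 on days 1, 4, 7 and 14. Its quiet values were much the same on every day, and the stressed ones all lay under them. Hibadh (ENSMUSG00000029776, chr6:52546228-52640389, minus strand), the dehydrogenase of the next step, went from 194.9, 167.3, 170.8 and 190.3 to 123.7, 116.8, 151.7 and 152.4. The log2 fold changes were -0.75 (SE 0.12, edgeR adjusted p = 1.28e-05) for Hibch and -0.72 (SE 0.09, edgeR adjusted p = 4.41e-07) for Hibadh.

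**Figure D2:**
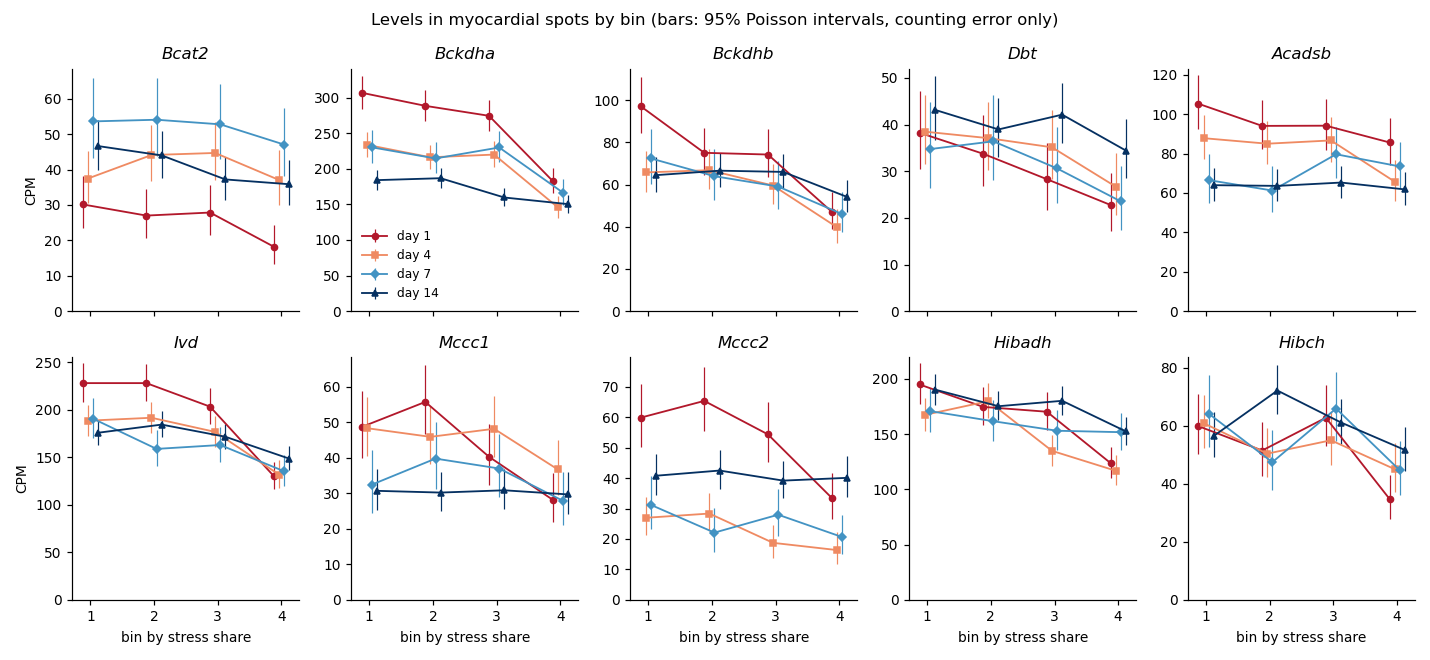
CPM of each enzyme in myocardial spots, by bin of stress gene share, with 1 line per section and bars for 95% Poisson intervals that cover counting error only. The median log2 ratio of bin 4 to bin 1 over the enzymes is -0.77 on day 1 and -0.25 on day 14.

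Summed over the 10 enzymes, the decline was concentrated in the most stressed bin. On day 1 the 4 bins of myocardial spots held 1169, 1094, 1030 and 707.2 CPM, and those of day 4 held 955.3, 945.4, 879.4 and 662. The bins of day 7 held 946.9, 860, 899 and 737.1, and the bins of day 14 held 896.4, 904.4, 853.2 and 759.3. In each section the step from bin 3 to bin 4 was the largest. The median log2 ratio of bin 4 to bin 1 over the enzymes, in CPM, was -0.77, -0.52, -0.48 and -0.25 on days 1, 4, 7 and 14. The ratio lay below 0 beyond its counting interval for 10, 9, 4 and 4 enzymes on days 1, 4, 7 and 14. Counting intervals were not taken for all genes, so these counts have no share of all genes to be read against. With 1 mouse per day the difference between days was not tested. The stress genes themselves held 88.7, 44.6, 62.6 and 26.4 UMIs per 10000 in bin 4 on days 1, 4, 7 and 14. In bin 1 they held 3.56, 5.05, 13 and 4.19. Neither bin was thus equally stressed across days, and the quiet bin had its highest share on day 7.

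Markers of cell types differed between these bins too. Myh6 and Myl2 held 2.55%, 2.26%, 2.50% and 2.31% of UMIs in bin 1 on days 1, 4, 7 and 14, and 1.54%, 1.57%, 2.03% and 2.15% in bin 4. The other 3 cardiomyocyte markers, Actc1, Tnnt2 and Tnni3, did not move together. With TMM 2 of them were lower (median log2 fold change -0.39), and with total UMIs 1 was lower and 1 higher (median -0.083). Whether Myh6 and Myl2 stand for the amount of cardiomyocyte RNA was not tested. The fibroblast markers held 1940 to 6620 CPM in bin 4, and 4 of the 5 were higher there with a median log2 fold change of 1.63. All 4 macrophage markers (Cd68, Lyz2, C1qa and Csf1r) were higher too, with a median of 0.88, as were all 3 smooth muscle markers with a median of 0.96. Of the neutrophil markers, 1 of 2 was higher (median 1.69), of the endothelial markers 1 of 4 (median 0.00), and of the fast skeletal muscle and adipocyte markers none of the 8 tested. Among myocardial spots below the section median of fibroblast marker share, an alternative added after seeing the data, the median of the enzymes was -0.29 and only Bckdha, Bckdhb and Hibadh were called lower, with 2.11% of genes called lower and 1.23% higher. Those spots were chosen on the same 5 fibroblast markers, so that none of these was called says little. Their median was 0.16, with 2 of 5 at an unadjusted p under 0.05 in the edgeR test, against 1198 of all 8859 genes tested. In the same spots 1 of 4 macrophage markers and 2 of 3 smooth muscle markers were still higher (medians 0.40 and 0.68).

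Counted per Myh6 and Myl2 UMI instead of per total, no enzyme passed the test. With those UMIs as the size of each library, an alternative added after seeing the data, none of the 10 was called in either direction, against 0.539% of all genes called lower and 74.3% called higher. At an unadjusted edgeR p under 0.05 there was 1, Bckdhb, against 8310 of all 10765 genes. The median log2 fold change of the enzymes was -0.08 against 0.73 for all genes. The sum of the 10 enzymes was 45.94 UMIs per 1000 Myh6 and Myl2 UMIs in bin 1 and 45.91 in bin 4 on day 1. The same pairs were 42.36 and 42.09 for day 4, 37.93 and 36.22 for day 7, and 38.82 and 35.31 for day 14. Only on day 14 were the intervals of the sum separate.

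Single enzymes spread around that level by little. Bckdhb was lowest, at a log2 fold change of -0.26 (SE 0.12, edgeR adjusted p = 0.0628), and Acadsb highest, at 0.25 (SE 0.12, edgeR adjusted p = 0.0657). Hibadh was closest to none, at -0.01 with an interval of 2 SE from -0.23 to 0.21. For all 10 enzymes these intervals lay between -0.505 and 0.502. Of the 4 sections Acadsb rose beyond counting error per Myh6 and Myl2 UMI on day 1 (0.43) and day 7 (0.44), and Bcat2 did so on day 4 (0.505), while Bckdha (-0.189) and Hibadh (-0.217) fell beyond it on day 14. The choice of reference matters here. Per UMI of Actc1, Tnnt2 and Tnni3, 3 other sarcomere genes, 8 enzymes were lower, all but Bcat2 and Acadsb, with a median of -0.42 and with 3.95% of all genes called lower and 40.0% higher. Total UMIs without TMM gave 9 enzymes lower, all but Acadsb, a median of -0.465 and a median of 0.33 over all genes, with 4.51% called lower and 34.8% higher. Of all calls, 11.5% were then lower, against 49.7% with TMM. The distance of the enzymes' median from that of all genes was -0.78 with TMM and -0.79 without.

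**Figure D3:**
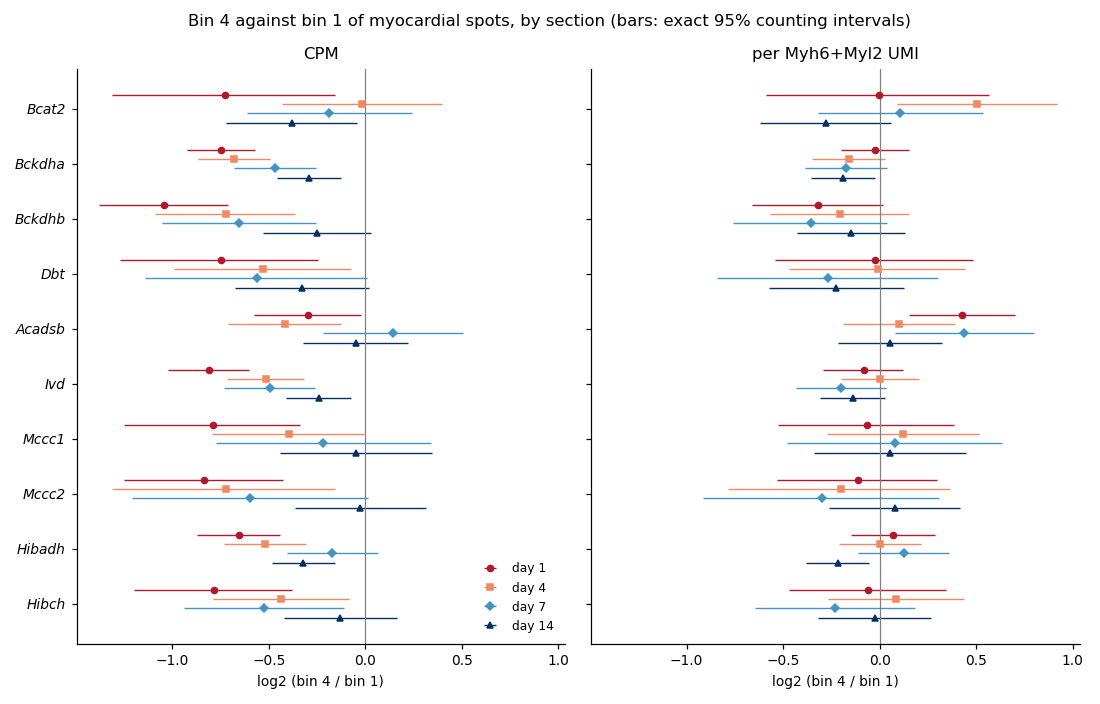
Log2 ratio of bin 4 to bin 1 of myocardial spots for each enzyme and section, in CPM (left) and per Myh6 and Myl2 UMI (right), with exact 95% counting intervals. In CPM the section medians run from -0.77 on day 1 to -0.25 on day 14, and per Myh6 and Myl2 UMI they lie between -0.19 and 0.00.

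Other genes of branched-chain amino acid handling were described from a list of 20, which holds transporters, the regulators of the dehydrogenase complex, and the enzymes that lead on to acetyl-CoA and succinyl-CoA. In myocardial spots 17 of them had enough UMIs to be tested (not Bcat1, Slc7a5 and Slc7a8), and 13 were lower and 1 higher in bin 4, with a median log2 fold change of -0.665. The largest fall was that of Ppm1k, the phosphatase that activates the dehydrogenase complex, which gave 81.5, 53.2, 50.6 and 48.5 CPM in bin 1 on days 1, 4, 7 and 14, and 15.3, 36.7, 32.7 and 36.4 in bin 4. It fell in every section and most on day 1 (fitted log2 fold change -1.20, SE 0.28, edgeR adjusted p = 0.00923). The opposing kinase Bckdk, which inactivates the complex, had a log2 fold change of -0.42 (edgeR adjusted p = 0.000683).

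Klf15, a transcription factor known to drive the genes of this pathway in heart muscle, gave 39.2, 43.4, 52.4 and 38.9 CPM in bin 1 and 12.4, 37.9, 32.2 and 29.9 in bin 4 on days 1, 4, 7 and 14. The fall was deepest on day 1 and slight on day 4 (log2 fold change -0.93, SE 0.16, edgeR adjusted p = 5.63e-05). Further down the valine and isoleucine branches, Aldh6a1 (-0.93), Mmut (-0.85), Acat1 (-0.80) and Pcca (-0.71) were lower on the fitted log2 scale, with edgeR adjusted p-values of 2.2e-08, 8.79e-08, 5.96e-08 and 7.69e-05. Aldh6a1 converts methylmalonate semialdehyde, Pcca is a subunit of propionyl-CoA carboxylase, Mmut makes succinyl-CoA, and Acat1 cleaves acetoacetyl-CoA and the last isoleucine intermediate. Slc3a2, the heavy chain shared by several amino acid transporters of the cell surface and found in many cell types, was the one gene of the list that was higher. It went from 46.8, 38.1, 24.7 and 19.2 CPM to 73.7, 61.4, 52.3 and 32.7 on days 1, 4, 7 and 14. The fitted log2 fold change was 0.455 with TMM (SE 0.13, edgeR adjusted p = 0.0105) and 0.763 with total UMIs.

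Per Myh6 and Myl2 UMI, a scale on which 74.3% of all genes were called higher and 0.539% lower, Ppm1k was the only gene of this list called lower (log2 fold change -0.52, SE 0.19, edgeR adjusted p = 0.0166), and 6 were higher, among them Slc3a2 (1.21), Slc25a44 (0.62), Acad8 (0.425), Bckdk (0.29) and Pccb (0.29). Slc25a44 is the mitochondrial carrier of branched-chain amino acids, Acad8 is a dehydrogenase of the valine branch and Pccb is the partner subunit of Pcca. With TMM, Acad8 (-0.265) and Slc25a44 (-0.09) were among the 3 genes of the list that did not pass the test. With total UMIs they stood at 0.035 and 0.211 and were not called either. All but Slc3a2 of these named genes lay below the all-gene median of 0.73 per Myh6 and Myl2 UMI. Bckdk was not called with total UMIs (-0.12) or per Actc1, Tnnt2 and Tnni3 UMI (-0.07).

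The same split between scales was seen in the other mitochondrial fuel genes set beside the enzymes. With TMM, all 14 genes of fatty acid oxidation (median -0.865) and all 18 of the citrate cycle and pyruvate dehydrogenase (median -0.67) were lower in bin 4 of myocardial spots, and 5 of 8 sarcomere genes were lower (median -0.29). With total UMIs, 13 fatty acid oxidation genes (median -0.561) and 18 citrate cycle genes (median -0.359) were lower. Of the sarcomere genes 2 were then lower and 3 higher (median 0.02), with 4.51% of all genes lower and 34.8% higher. Per Myh6 and Myl2 UMI, 3 fatty acid oxidation genes were lower and 1 higher (median -0.16), no citrate cycle gene was called (median 0.05) and 7 of the 8 sarcomere genes were higher (median 0.44), against 74.3% of all genes higher and an all-gene median of 0.73. The enzymes of branched-chain amino acid breakdown, at -0.76 with TMM and -0.08 per Myh6 and Myl2 UMI, lay between the 2 mitochondrial lists on both of these scales.

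**Figure D4:**
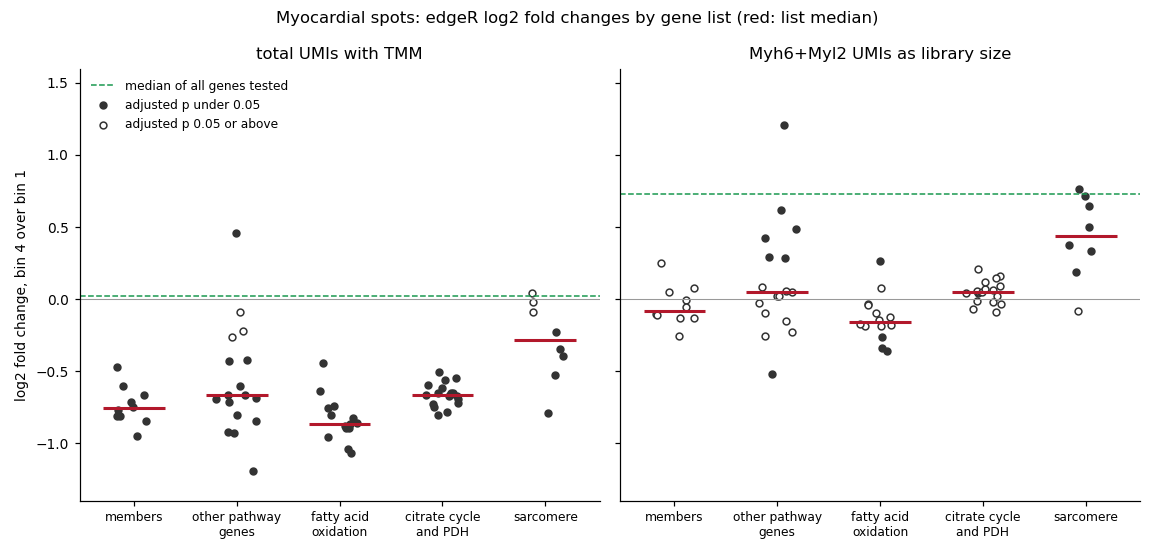
Log2 fold changes of bin 4 over bin 1 in myocardial spots for the 10 enzymes ("members"), other genes of the pathway, fatty acid oxidation, citrate cycle with pyruvate dehydrogenase (PDH) and sarcomere genes, with total UMIs and TMM (left) and with Myh6 and Myl2 UMIs as library size (right). Each point is a gene, filled where its adjusted p is under 0.05, red bars are list medians and the dashed line is the median of all genes tested. The enzymes' median moves from -0.76 to -0.08 while that of all genes moves from 0.02 to 0.73.

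Over all spots, scar included, none of the 10 enzymes passed the test, although all 10 fitted values were below 0. The log2 fold changes ran from -0.82 (Bckdhb, edgeR adjusted p = 0.244) to -0.36 (Dbt, edgeR adjusted p = 0.601), with a median of -0.525 against -0.01 over 11617 genes, of which 0.310% were called lower and 0.525% higher. At an unadjusted edgeR p under 0.05 there were 3, Bckdha, Bckdhb and Mccc2, against 1209 of the 11617 genes. DESeq2 called none of the 10 either, with 62 genes lower and 103 higher. Total UMIs without TMM gave none as well, with 0.241% of genes lower and 0.878% higher. None of the 20 other genes of the pathway was called over all spots, and 17 of their fitted values were below 0. Without the day 1 section the median of the enzymes was -0.19. Per Myh6 and Myl2 UMI the all-spot fit gave a median of -0.04 against 0.42 for all genes, with no enzyme called or at an unadjusted p under 0.05 and with 0.0258% of genes called lower and 0.0430% higher. Of all genes, 829 of 11615 had an unadjusted edgeR p under 0.05 there. That fit was imprecise: 2 SE intervals were as wide as -0.43 to 0.85 for Dbt, and on simulated counts it called none of 200 genes changed by 0.75 on the log2 scale.

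The 4 sections differed from each other over all spots. Summed over the 10 enzymes, bins 1 to 4 held 1143, 1073, 810.3 and 532.3 CPM on day 1, a steady descent. On day 7 they held 616.5, 839.7, 883.6 and 686.7, with the lowest level in the bin that held 32.0% myocardial spots, 23600 fibroblast marker and 12100 fast skeletal muscle marker CPM. The sums of day 4 were 736.5, 909.2, 778.2 and 505.8, and those of day 14 were 863, 880.1, 864.9 and 761.9. The highest level thus lay in bin 1 on day 1, in bin 2 on days 4 and 14, and in bin 3 on day 7. Without spots that held at least 10 UMIs of the skeletal muscle or adipocyte markers, the fitted median over the 4 sections was -0.55 and again no enzyme was called. Of 11563 genes, 23 were then lower and 63 higher.

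Across all 16 section and bin sums of all spots, the genes that followed the summed enzymes most closely were Mpc2, a subunit of the mitochondrial pyruvate carrier (Pearson r = 0.996), Coq9, which takes part in coenzyme Q synthesis (0.995), Pxmp2, a peroxisomal membrane channel (0.994), Etfdh, which passes electrons from acyl-CoA dehydrogenases, Ivd and Acadsb among them, to coenzyme Q (0.991), and Hrc, a calcium-binding protein of the sarcoplasmic reticulum (0.991). The measure was taken on log2 CPM centred within each section, over 4758 genes. Among myocardial spots, where the makeup varied less, the closest of 3668 genes were Lgals4 (0.99), Uqcrfs1 (0.988), Ldhb (0.984), Coq9 (0.982) and Atp2a2 (0.98), and Pxmp2, Etfdh and Hrc were not among the closest 10. Uqcrfs1 is a subunit of respiratory complex III, Ldhb a lactate dehydrogenase subunit and Atp2a2 the calcium pump of the sarcoplasmic reticulum. The 16 sums share 4 mice and the same myocardial makeup, and the coefficients are descriptions.

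Between days, the sum of the 10 enzymes over all spots had a 1.2-fold range, at 885.6, 737.4, 765 and 843.3 CPM on days 1, 4, 7 and 14. Their 95% Poisson intervals, which cover counting error only, separated day 1 from day 14 and day 14 from day 7, and those of days 7 and 4 overlapped. Myocardial spots made up 75.5%, 68.9%, 70.9% and 87.1% of the spots kept, in the same order of days. In bin 1 of myocardial spots the sum was 1169, 955.3, 946.9 and 896.4 CPM. Per 1000 Myh6 and Myl2 UMIs over all spots it was 46.28, 44.01, 39.01 and 38.47. Day 14 was lowest on both, though its interval overlapped that of the next day in order. Per 1000 Myh6 and Myl2 UMIs in bin 1, day 7 was lowest, at 37.93 against 38.82 on day 14. With 1 mouse per day, a difference between days cannot be told apart from one between mice or sections. In 8 of the 10 enzymes the highest day was 1.22 to 1.46 times the lowest in CPM over all spots. The other two were Mccc2 and Bcat2.

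Mccc2 gave 46.0, 19.0, 22.3 and 39.8 CPM over all spots on days 1, 4, 7 and 14. The middle days were about alike and low, and the outer days were high, with day 1 over day 4 at 2.43 times (interval 2.1 to 2.82). Its partner Mccc1 did not follow, at 38.7, 38.3, 31.9 and 29.9. There were therefore 0.84, 2.02, 1.43 and 0.751 UMIs of Mccc1 per UMI of Mccc2 on days 1, 4, 7 and 14. The highest interval on the outer days reached 0.952, and the lowest on the middle days started at 1.19. The ratio of 2 genes is free of the total UMI count, but it was read in 1 mouse per day. In bin 1 of myocardial spots Mccc2 had the same order, at 59.9, 26.9, 31.2 and 40.8 CPM. Day 1 was separate from the other days there. The interval of day 4 ended at 33.68, below that of day 14 (34.57 to 47.77), but that of day 7 (23.38 to 40.82) overlapped it. Per 1000 Myh6 and Myl2 UMIs no neighbours in that order were separate in this bin.

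Bcat2 ran the other way, with 23.8, 39.3, 47.7 and 40.5 CPM over all spots on days 1, 4, 7 and 14. Day 1 lay apart below the other days, and day 7 was 2.01 times day 1 (interval 1.72 to 2.34). In bin 1 of myocardial spots it gave 30.2, 37.4, 53.6 and 46.6, again with day 1 lowest and day 7 highest, though no neighbours in that order were separate.

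Bckdha was highest on day 1, at 229.1 CPM against 168.3, 185.3 and 168.0 on days 4, 7 and 14, and in bin 1 of myocardial spots it stood at 306.9, 233.8, 230.2 and 184.1. Its partner Bckdhb gave 63.6, 49.2, 52.7 and 62.4 over all spots. The UMI ratio of Bckdha to Bckdhb was 3.6, 3.42 and 3.51 on days 1, 4 and 7 with overlapping intervals, and 2.69 (interval 2.5 to 2.9) on day 14. Hibadh to Hibch, consecutive enzymes of the valine branch, kept ratios of 3.12, 2.78, 2.91 and 2.88 with intervals that all overlapped.

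Acadsb and Mccc1 had their highest day 1 and lowest day 14 values, Acadsb at 88.0, 73.5, 68.2 and 64.0 CPM on days 1, 4, 7 and 14. Dbt, Hibadh and Hibch were instead highest on day 14, Hibadh at 148.4, 127.6, 141.6 and 172.3, Hibch at 47.5, 45.9, 48.6 and 59.9, and Dbt at 29.8, 30.6, 26.9 and 39.2. For these 3 genes day 14 was separate from the next day in order. In bin 1 of myocardial spots the order turned for Hibch, which was lowest on day 14 (56.5), and Hibadh was highest on day 1 (194.9 against 190.3 on day 14), while Dbt was again highest on day 14 (43.2). No neighbouring days were separate there for these 3 genes. Ivd stayed within 139.8 to 170.8. Per 1000 Myh6 and Myl2 UMIs, Hibadh ranged over 7.22 to 7.86 and Hibch over 2.48 to 2.74, with all neighbouring days overlapping, while Mccc2 kept a 2.13-fold and Bcat2 a 1.96-fold range.

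**Figure D5:**
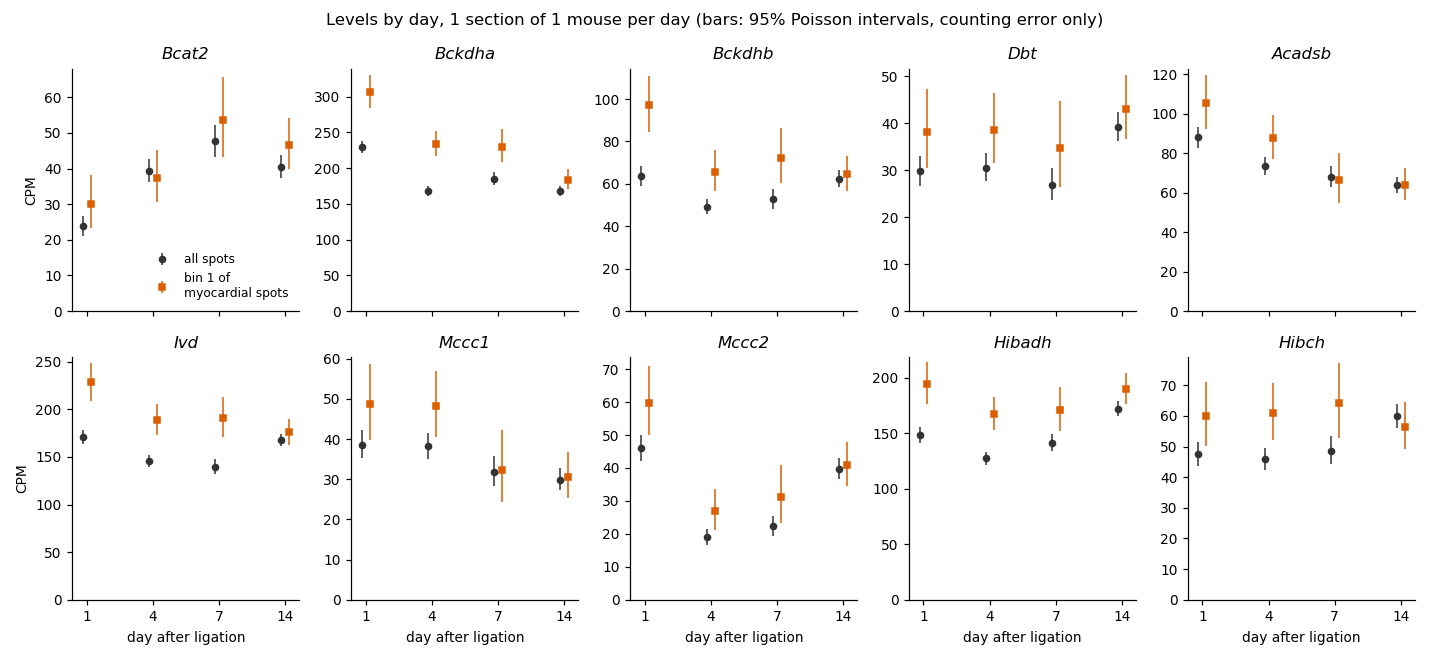
CPM of each enzyme on each day after LAD ligation, over all spots and in bin 1 of myocardial spots, with 95% Poisson intervals that cover counting error only and 1 section of 1 mouse per day. Mccc2 is lowest on days 4 and 7 and Bcat2 is lowest on day 1, and the range of the other 8 enzymes over all spots is at most 1.46-fold.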

How the data were processed

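The authors deposited UMI counts per gene and spot from Space Ranger 1.3.0 on mm10, raw and limited to spots under tissue, and their notes also name Seurat 4.1.1. The slide positions of spots and the tissue images were left out. The members and gene lists were chosen with earlier results of these data known.

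Spots over 1% hemoglobin UMIs (8 genes) were removed. Spots were ranked within each section by the share of Ankrd1, Flnc, Xirp2 and Nppb, and UMIs were summed per section and bin. Myocardial spots had a Myh6 and Myl2 share of at least 0.5 times the section median. Genes with at least 100 UMIs were tested with edgeR 4.0.16 (R 4.3.3, limma 3.58.1), with TMM scaling, the section as a block (9 residual degrees of freedom), robust quasi-likelihood dispersion and Benjamini-Hochberg adjustment over all genes tested. The ranking genes were left out, as were Myh6 and Myl2 where they chose the spots or were the library size. Standard errors are the log2 fold change over the square root of F. No doublet caller was run on spots.

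Depth was 9292678 to 15713779 UMIs per section. Levels have exact Poisson and ratios exact conditional 95% intervals, which cover counting error only. On simulated counts with 200 genes changed by 0.75 (log2), edgeR called 44 of them with 1 false call over all spots (11615 genes) and 134 with 6 false calls in myocardial spots (10765 genes). Those counts were drawn independently, with 1 dispersion for all genes and no difference in makeup between bins. They therefore do not measure the rate of false calls in the real sections.

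Named genes are the 10 enzymes, up to 6 other pathway genes per direction past an adjusted p of 0.05, and the 5 genes of at least 1000 UMIs that correlated best with the summed enzymes (log2 of CPM plus 1). Bckdk and the genes named per Myh6 and Myl2 UMI were added after their values were seen. The values of 1 gene of the pathway list are not reported here. Alternatives were total UMIs, DESeq2 1.42.0, other minimums per gene (10, 1000) or spot (1000), 3 bins, a linear trend, other rankings, denominators and spot filters, no section block, and each section left out in turn. Coordinates were taken from GENCODE vM21 (GRCm38). RefSeq promoter windows were matched by symbol for 9 of the 10 enzymes.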

Additional observations from a re-analysis of the deposited data

Results flagged for a closer look

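Over all spots, 5 of the enzymes moved in opposite directions in different sections beyond counting error, as log2 ratios of bin 4 to bin 1. Counting intervals were not taken for all genes, so this count has no share of all genes to be read against. The summed enzymes, these 5 included, also reversed beyond counting error. Per Myh6 and Myl2 UMI the sum stood at 0.3, 0.129, -0.523 and -0.185 on days 1, 4, 7 and 14. In CPM it stood at -1.1, -0.542, 0.155 and -0.18. With 1 mouse per day the difference between sections was not tested. Per Myh6 and Myl2 UMI, Bcat2 stood at 0.694, 0.64, -0.707 and -0.411 on days 1, 4, 7 and 14. On the same scale Hibch stood at 0.653, 0.417 and -0.571 on days 1, 4 and 7, and Acadsb at 0.825 on day 1 and -0.449 on day 7. Ivd stood at 0.212 on day 4 and -0.425 on day 7, and Hibadh at 0.295, -0.314 and -0.193 on days 1, 7 and 14. In CPM, Hibadh stood at -1.11, -0.579, 0.365 and -0.188 on days 1, 4, 7 and 14. On day 7 bin 1 held 32.0% myocardial spots and 12100 fast skeletal muscle marker CPM, and on day 1 it held 98.5% and 3.69. The part of this makeup in the opposite directions was not tested. In myocardial spots no enzyme moved in opposite directions beyond counting error.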

How the results depend on the processing

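In myocardial spots, 10 enzymes were lower with each section left out in turn (lowest 10, highest 10) and with DESeq2, 3 bins, a linear trend, other minimums per gene or spot, no hemoglobin filter, no skeletal muscle or adipocyte spots and a ranking per Myh6 and Myl2 UMI. Of all genes, 1098 of 10181 were lower without day 1 and 865 of 10151 without day 4. Without day 7 there were 974 of 10229, and without day 14 1268 of 9943. Of 10765 genes, 961 were lower with DESeq2, 1156 with 3 bins, 1277 with the trend and 1416 with that ranking. Minimums per gene of 1000 and 10 gave 831 of 3673 and 1360 of 14337. The spot minimum gave 1314 of 10753, no hemoglobin filter 1393 of 10991, and no skeletal muscle or adipocyte spots 1302 of 10753. The number of enzymes lower was 9 with total UMIs, where 486 of 10765 genes tested were lower. It was 7 with a Myh6 and Myl2 share of at least the section median (409 of 9662 genes lower). Without the section block it was also 7 (599 of 10765). A ranking on Flnc and Xirp2 gave 4, Bckdha, Bckdhb, Hibadh and Hibch (299 of 10765). In spots below the median fibroblast share it was 3 (187 of 8859). With Myh6 and Myl2 UMIs as library size it was 0 (58 of 10765 lower, 7994 higher). There Bcat2 (0.0751), Acadsb (0.254) and Mccc1 (0.0459) turned positive. Over all spots, 0 enzymes were lower with any section left out (lowest 0, highest 0), where 1 to 346 genes were lower. With a ranking per Myh6 and Myl2 UMI 10 were lower, where 1908 of 11617 genes were lower and 1814 higher. Per Myh6 and Myl2 UMI that ranking gave 2 higher (Bcat2 and Acadsb), where 10822 of 11615 genes were higher and 18 lower. The median of the enzymes was then 0.471 against 1.86 for all genes. Per Myh6 and Myl2 UMI with the main ranking, 0 enzymes were called with any section left out, where 0 to 61 genes were lower and 0 to 21 higher. These causes were not tested, but the ranking per Myh6 and Myl2 UMI places spots of low Myh6 and Myl2 in bin 4 by its construction. The log2 ratio of the summed enzymes on day 1 over day 4 was 0.2 in CPM of myocardial spots. It was 0.0726 per Myh6 and Myl2 UMI of all spots. For day 1 over day 14 these were 0.219 and 0.267, and each pair differs in both scale and spots.

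Counts over all genes depended on the setting. In myocardial spots 1308 genes were lower and 1325 higher, against 961 and 873 with DESeq2, 599 and 606 without the section block, 299 and 245 with the ranking on Flnc and Xirp2, 187 and 109 in spots of low fibroblast share, 409 and 329 with the stricter myocardial limit and 831 and 815 with 1000 UMIs per gene. Leaving out day 4 gave 865 and 801. Over all spots 36 were lower and 61 higher, against 346 and 217 without day 1, 7 and 4 without day 4, 1 and 9 without day 7, 62 and 103 with DESeq2, and 1908 and 1814 with the ranking per Myh6 and Myl2 UMI. Between days, no paired analysis was possible because each day has 1 section. Bins were compared within sections, with the section as a block. Depth limits Mccc2, Dbt and Mccc1 most, with 1655, 1661 and 1777 UMIs in all.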
